A study of Homo sapiens with 12 samples.

Results

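The 55 genes described here encode proteins that make ribosomes in the nucleolus, and they were chosen by name out of the 26481 genes of the count table. All 55 passed the filter on low counts, which kept 14164 genes for testing. They were measured by RNA sequencing in HEL, an established human erythroleukemia line of acute myeloid leukemia (AML) that carries DNA barcodes for lineage tracing. The study asked how resistant cells regrow after chemotherapy and whether a low dose of a DNA methylation inhibitor changes that regrowth. The groups were cells without chemotherapy cultured with dimethyl sulfoxide (NT, n = 2), regrown cells after 1.8 µM doxorubicin (Doxo, n = 3), after the same doxorubicin dose plus 6 µM of cytarabine (Doxo+Cyta, n = 3), and after these drugs plus 0.1 µM of decitabine (Doxo+Cyta+DAC, n = 4). Drugs were present for 72 h, and survivors then regrew without drug for about 30 days. Decitabine was given only together with both other drugs here, and cells given it alone were not analysed here. Every library came from 1 cell line, and the cultures of a group are described as biological replicates of that line, so each p-value measures the spread between these cultures only.

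Ribosomes are assembled around the ribosomal RNA that RNA polymerase I transcribes in the nucleolus. Small nucleolar ribonucleoproteins (snoRNPs) modify this RNA, the small-subunit processome folds and cuts the precursor of the 40S subunit, and a separate set of assembly factors builds the 60S subunit. Many of these genes are known targets of the transcription factor MYC, and their expression is high in growing cells. In what follows the genes are ordered along this path.

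Total counts lay between 12763582 and 19106235 per library. The 55 genes took 0.737% to 0.741% of all counts in the NT libraries, 0.627% to 0.791% in those of Doxo, 0.640% to 0.699% in those of Doxo+Cyta, and 1.37% to 1.45% with decitabine added. Their lowest count in any library was 72, for PPAN. Levels are given as CPM, in which the counts of each library are brought to one library size, so they are relative to the other RNA of a library, and in such bulk samples fewer cells of a kind and less RNA per cell cannot be told apart. HEL markers such as HBG2 (3124 to 6411 CPM), GATA1 (172 to 421 CPM) and ITGA2B (857 to 1713 CPM) were present in every library, and of 9 markers of other cell types, such as CD3E, MS4A1 and EPCAM, all but NKG7 (2.69 to 8.54 CPM) were at or below 1.27 CPM. No pair of libraries in a group was a duplicate of the other. The library Doxo replicate 4 stood apart from Doxo replicates 5 and 6, and Doxo+Cyta replicate 20 from replicates 19 and 22, which bears on every comparison of those groups.

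In Doxo+Cyta+DAC 51 of the 55 genes were higher than in NT and 0 were lower, at an adjusted p under 0.05 in edgeR's quasi-likelihood test. Of all tested genes, 24.9% were higher and 23.7% lower in this comparison, 48.7% in either direction. The median log2 fold change of the 55 genes was 1.17, against 0.02 over all tested genes. At an unadjusted p under 0.05 there were 52 genes, all higher, where 54.9% of tested genes passed in either direction. All 4 Doxo+Cyta+DAC libraries lay above all 8 other libraries for 51 of the 55 genes, a pattern held by 21.5% of the tested genes. Each of the 4 libraries had a median between 1.10 and 1.20 on the log2 scale relative to NT. Leaving out any 1 of the 12 libraries left 49 to 52 of the genes past the test, all of them higher, with 30.6% to 54.9% of tested genes called.

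**Figure D1:**
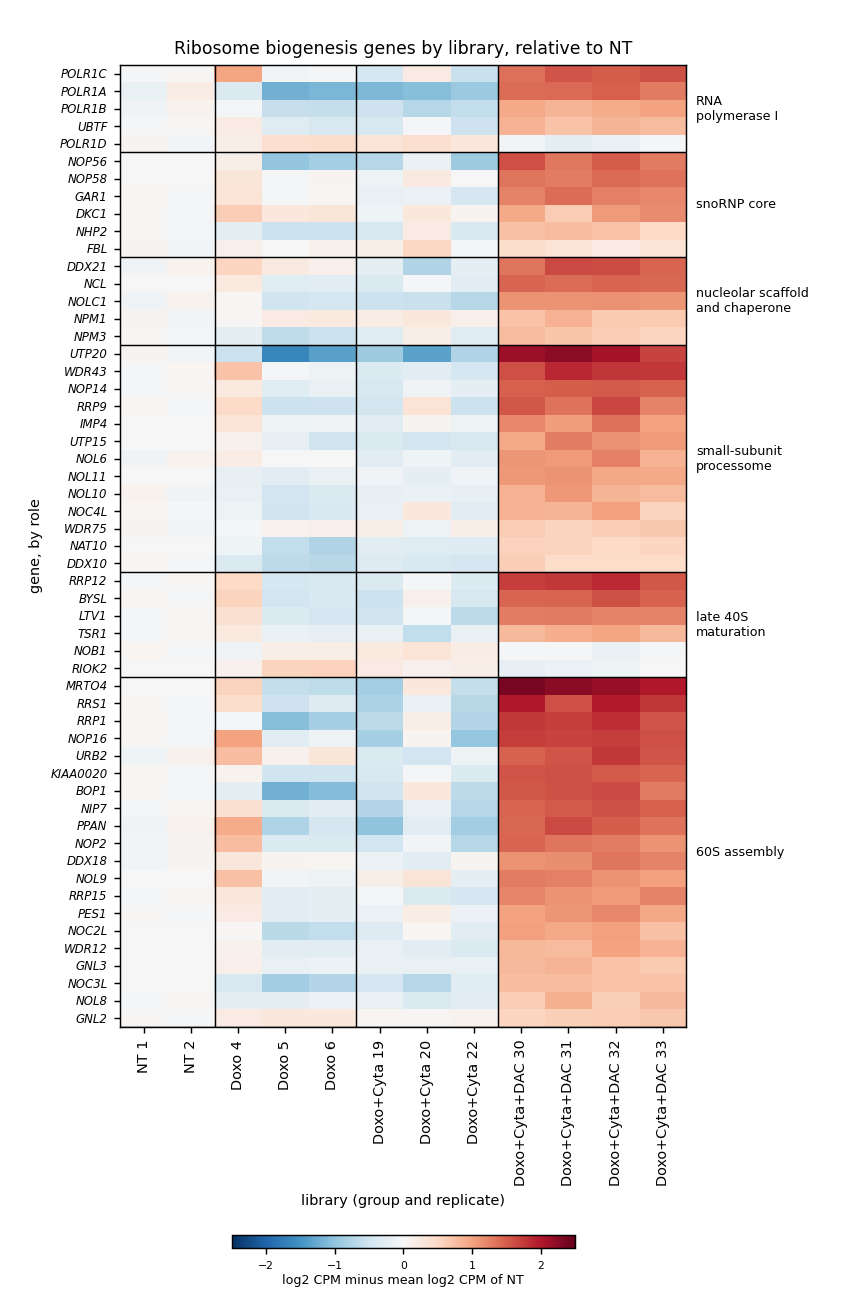
Level of each of the 55 genes (rows, by role) in each of the 12 libraries (columns), as log2 CPM minus the mean log2 CPM of the NT libraries. The 4 Doxo+Cyta+DAC columns are red for all but POLR1D, NOB1 and RIOK2, and the Doxo replicate 4 column is redder than those of Doxo replicates 5 and 6.

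The extremes of the set were MRTO4, a factor for assembly of the stalk base of the 60S subunit, and POLR1D, a subunit that RNA polymerases I and III share. MRTO4 (chr1:19251581-19260128, plus strand), singled out after its values were seen, was at 44.3 and 44.1 CPM (NT), 65.5, 29.3 and 28.3 CPM (Doxo), 24.6, 53.4 and 29.3 CPM (Doxo+Cyta) and 230.4, 211, 199 and 177 CPM (Doxo+Cyta+DAC). The lowest Doxo+Cyta+DAC library held 2.7 times the level of the highest other library, and the log2 fold change relative to NT was 2.21 ± 0.35 (SE, adjusted p = 0.000212). POLR1D (chr13:27620743-27667422, plus strand) was at 186 and 169 CPM (NT), 198, 237 and 242 CPM (Doxo), 221, 236 and 216 CPM (Doxo+Cyta) and 169, 152, 159 and 171 CPM (Doxo+Cyta+DAC). Its Doxo+Cyta+DAC range began below and reached into that of NT, with a log2 fold change of -0.13 ± 0.11 (SE, adjusted p = 0.345). The other genes that did not pass the test were NOB1, RIOK2 and FBL.

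Promoter windows from RefSeq on GRCh38.p14 were available for 47 of the 55 genes, from 250 bases before to 50 bases after a start site, and RRP12, NOP58, NOL10, NOLC1, DDX18, BOP1, URB2 and RRS1 had none. The letters CACGTG, the E-box hexamer that reads the same on both strands and that MYC with its partner MAX is known to bind, stood in the windows of 20 of the 47 genes (42.6%). They stood in those of 12.4% of 10262 tested genes with a window and of 8.77% of all 27305 genes with a window. A gene was counted if any of its windows held them. Counted by window, they stood in 7.26% of all 35116. Windows are shown for the 3 hexamer-bearing genes with the largest log2 fold changes in Doxo+Cyta+DAC relative to NT and for the 3 genes with a negative one. Each ends 30 bases after the start site, is written 5′ to 3′ on the strand of the gene, and has the hexamer in capitals.
MRTO4, chr1:19251555-19251834, plus strand: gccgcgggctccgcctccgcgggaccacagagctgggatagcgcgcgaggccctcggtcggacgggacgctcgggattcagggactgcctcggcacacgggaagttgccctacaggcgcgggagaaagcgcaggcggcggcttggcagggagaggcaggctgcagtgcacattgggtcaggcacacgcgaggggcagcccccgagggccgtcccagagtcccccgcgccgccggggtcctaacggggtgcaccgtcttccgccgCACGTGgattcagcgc
UTP20, chr12:101279855-101280134, plus strand: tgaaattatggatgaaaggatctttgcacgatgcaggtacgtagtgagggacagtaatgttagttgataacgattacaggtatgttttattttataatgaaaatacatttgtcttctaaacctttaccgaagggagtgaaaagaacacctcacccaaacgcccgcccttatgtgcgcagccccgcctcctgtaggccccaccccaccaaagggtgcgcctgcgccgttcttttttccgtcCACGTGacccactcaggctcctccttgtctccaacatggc
WDR43, chr2:28894417-28894696, plus strand: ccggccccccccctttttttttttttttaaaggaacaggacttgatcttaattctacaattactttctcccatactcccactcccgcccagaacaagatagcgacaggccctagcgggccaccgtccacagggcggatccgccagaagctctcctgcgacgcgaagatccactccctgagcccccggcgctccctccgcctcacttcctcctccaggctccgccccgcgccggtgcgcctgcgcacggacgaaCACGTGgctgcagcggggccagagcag
POLR1D, chr13:27620493-27620772, plus strand: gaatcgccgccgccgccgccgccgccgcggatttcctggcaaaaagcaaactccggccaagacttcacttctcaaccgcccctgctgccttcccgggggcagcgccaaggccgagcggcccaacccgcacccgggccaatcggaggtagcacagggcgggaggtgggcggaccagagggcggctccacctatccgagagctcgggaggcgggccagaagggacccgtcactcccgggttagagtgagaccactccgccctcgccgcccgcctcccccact
RIOK2, chr5:97183218-97183497, minus strand: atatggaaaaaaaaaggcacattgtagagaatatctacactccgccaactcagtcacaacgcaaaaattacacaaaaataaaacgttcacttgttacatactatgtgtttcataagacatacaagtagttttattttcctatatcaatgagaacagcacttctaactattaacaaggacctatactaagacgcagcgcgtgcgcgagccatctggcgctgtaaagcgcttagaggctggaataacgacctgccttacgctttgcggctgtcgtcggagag
NOB1, chr16:69754897-69755176, minus strand: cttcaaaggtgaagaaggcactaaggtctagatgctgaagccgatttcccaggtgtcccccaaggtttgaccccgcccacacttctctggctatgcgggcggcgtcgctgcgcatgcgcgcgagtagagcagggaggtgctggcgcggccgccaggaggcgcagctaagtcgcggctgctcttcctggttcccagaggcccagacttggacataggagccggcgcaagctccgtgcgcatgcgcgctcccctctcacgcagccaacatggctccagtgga

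No CACGTG stood in the windows of POLR1D, RIOK2 or NOB1, which holds for 27 of the 47 genes. The 3 windows of rising genes were picked because they hold it, so the windows shown do not compare rising with falling genes. The hexamer began 14 bases after the RefSeq start site of the window in MRTO4, 3 bases after it in WDR43 and 10 bases before it in UTP20. The gene as counted began at another base in all 3, before that site in MRTO4 and WDR43 and after it in UTP20. For PES1, the window lay inside the gene as counted. Of the 21 matches in the set, 20 began from 50 bases before to 49 bases after the start site, and the remaining one was the more distant of the pair in IMP4. Among the 1519 matches in windows of the other tested genes, 37.3% began in that stretch, which was chosen after the positions had been seen. By role, the hexamer was found in 0 of 5 RNA polymerase I genes, 2 of 5 snoRNP genes, 1 of 4 scaffold genes, 7 of 12 genes of the small-subunit processome, 2 of 5 late 40S genes and 8 of 16 genes of 60S assembly. The median log2 fold change in Doxo+Cyta+DAC relative to NT was 1.27 for the 20 genes with it (0.34 to 2.21) and 0.94 for the 27 without it (-0.13 to 1.73), ranges that overlap widely. Among other motifs, searched on both strands, CCGGAAG stood in 31.9% of the 47 genes and 21.5% of tested genes, the palindrome known to bind NRF1 in 6.38% and 2.64%, and TATAAA in 4.26% and 8.61%. A match of letters is a description of the window and does not show that a factor was bound.

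RNA polymerase I copies the ribosomal RNA genes, and 4 of its 5 genes rose in Doxo+Cyta+DAC relative to NT (24.9% of tested genes). POLR1A, the largest subunit (chr2:86026328-86106155, minus strand), was at 26.1 and 33.7 CPM (NT), 23, 12.8 and 13.3 CPM (Doxo), 13.5, 14.1 and 15.5 CPM (Doxo+Cyta) and 78.4, 79.6, 84 and 73.6 CPM (Doxo+Cyta+DAC). Every library of both chemotherapy-only groups, which overlapped each other, lay below NT and every Doxo+Cyta+DAC library above it, at a log2 fold change of 1.40 ± 0.21 (SE, adjusted p = 0.000115) relative to NT. POLR1B, the second largest subunit (chr2:112541915-112577152, plus strand), was at 48.3 and 55 CPM (NT), 50.1, 34.6 and 34.1 CPM (Doxo), 35.7, 31.5 and 33.8 CPM (Doxo+Cyta) and 99.8, 93, 97.8 and 103 CPM (Doxo+Cyta+DAC). Relative to NT, it changed by 0.93 ± 0.15 (SE, adjusted p = 0.000268) on the log2 scale. POLR1C, which is shared with RNA polymerase III (chr6:43517039-43521508, plus strand), was at 24.3 and 25.3 CPM (NT), 49.2, 23.7 and 24.4 CPM (Doxo), 18.4, 28.5 and 16.7 CPM (Doxo+Cyta) and 64.9, 73.5, 71.2 and 75.2 CPM (Doxo+Cyta+DAC). Here Doxo replicate 4 stood far above the other Doxo libraries yet stayed below every Doxo+Cyta+DAC library, and the log2 fold change relative to NT was 1.52 ± 0.28 (SE, adjusted p = 0.000609). UBTF, the factor that keeps ribosomal RNA genes open for transcription, changed by 0.81 ± 0.17 (SE, adjusted p = 0.00154) on that scale.

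POLR1D moved the other way from the rest of the polymerase. It was lower in Doxo+Cyta+DAC than in Doxo by -0.47 ± 0.09 (SE, adjusted p = 0.000715) on the log2 scale and lower than in Doxo+Cyta by -0.46 ± 0.09 (SE, adjusted p = 0.000768). Every Doxo+Cyta+DAC library lay below every library of both these groups. Relative to NT, POLR1D was 0.34 ± 0.11 (SE, adjusted p = 0.0675) in Doxo and 0.34 ± 0.11 (SE, adjusted p = 0.131) in Doxo+Cyta, with no overlap of the libraries but no adjusted p under the threshold.

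Among the snoRNP core proteins, 5 of 6 rose in Doxo+Cyta+DAC relative to NT (24.9% of tested genes). NOP58, a scaffold of the box C/D particles that guide methylation of ribosomal RNA (chr2:202265792-202303661, plus strand), was at 127 and 129 CPM (NT), 157, 126 and 134 CPM (Doxo), 118, 151 and 128 CPM (Doxo+Cyta) and 325, 309.9, 341 and 326 CPM (Doxo+Cyta+DAC). The 8 libraries of the other groups spanned a narrow band and the 4 with decitabine were all far above it, with a log2 fold change relative to NT of 1.34 ± 0.13 (SE, adjusted p = 4.18e-06). GAR1, part of the H/ACA particles that guide pseudouridylation (chr4:109815510-109824737, plus strand), was at 21.4 and 20 CPM (NT), 26.2, 20.1 and 21.3 CPM (Doxo), 18.1, 18.7 and 15.3 CPM (Doxo+Cyta) and 49.3, 54.9, 50 and 47.8 CPM (Doxo+Cyta+DAC). Relative to NT, it changed by 1.29 ± 0.15 (SE, adjusted p = 1.57e-05) on the log2 scale. DKC1, the pseudouridine synthase of the same particles, on the X chromosome (chrX:154762742-154777689, plus strand), was at 222 and 212 CPM (NT), 332, 259.6 and 268 CPM (Doxo), 200.1, 262 and 227 CPM (Doxo+Cyta) and 416, 336, 454 and 495 CPM (Doxo+Cyta+DAC). Doxo+Cyta+DAC replicate 31 exceeded Doxo replicate 4 by a small margin, the groups did not overlap, and the log2 fold change relative to NT was 0.97 ± 0.16 (SE, adjusted p = 0.000282). FBL, the methyltransferase of the box C/D particles, was at 389 and 356 CPM (NT), 406, 371 and 403 CPM (Doxo), 410.2, 535 and 360.4 CPM (Doxo+Cyta) and 507, 475, 427 and 475 CPM (Doxo+Cyta+DAC). Doxo+Cyta replicate 20 was above all other libraries, and FBL changed by 0.34 ± 0.14 (SE, adjusted p = 0.0568) in Doxo+Cyta+DAC relative to NT, which missed the threshold. NOP56, the partner of NOP58, rose by 1.44 ± 0.28 (SE, adjusted p = 0.000857) and NHP2 by 0.69 ± 0.17 (SE, adjusted p = 0.00422).

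All 5 nucleolar scaffold and chaperone genes rose in Doxo+Cyta+DAC relative to NT (24.9% of tested genes). NPM1, nucleophosmin (chr5:171387704-171410884, plus strand), had the highest level per length of the 55 genes, at a mean of 1279 CPM per kb of exon over the 12 libraries, followed by NCL at 531 and FBL at 366. NPM1 was at 1853 and 1704 CPM (NT), 1821, 2037 and 2096 CPM (Doxo), 2007, 2139 and 1939.5 CPM (Doxo+Cyta) and 2901, 3227, 2804 and 2784 CPM (Doxo+Cyta+DAC). Its log2 fold change of 0.72 ± 0.10 (SE, adjusted p = 8.67e-05) was below the median of the set, and NPM1 has many processed pseudogenes, so reads that also match a copy may be missing from its count. NCL, nucleolin (chr2:231454748-231464494, minus strand), was at 937 and 960.1 CPM (NT), 1129, 770.2 and 795 CPM (Doxo), 742, 919 and 795 CPM (Doxo+Cyta) and 2601, 2503, 2609.6 and 2559 CPM (Doxo+Cyta+DAC). The 4 Doxo+Cyta+DAC libraries lay within 48.6 CPM (SD) of a mean of 2568 CPM, and the log2 fold change relative to NT was 1.44 ± 0.15 (SE, adjusted p = 8.32e-06).

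DDX21, an RNA helicase of the nucleolus (chr10:68956123-68985069, plus strand), was at 157 and 177 CPM (NT), 242, 194 and 183 CPM (Doxo), 143, 98.7 and 143 CPM (Doxo+Cyta) and 421, 527, 517 and 459 CPM (Doxo+Cyta+DAC). It rose by 1.52 ± 0.17 (SE, adjusted p = 1.64e-05) relative to NT, and it was lower in Doxo+Cyta than in Doxo by -0.69 ± 0.15 (SE, adjusted p = 0.0275). The libraries of those 2 chemotherapy groups did not overlap. NOLC1, which carries snoRNPs (chr10:102152176-102163871, plus strand), was at 222 and 247 CPM (NT), 239, 166 and 172 CPM (Doxo), 160.3, 159 and 144 CPM (Doxo+Cyta) and 508, 507, 518 and 504 CPM (Doxo+Cyta+DAC). It rose by 1.12 ± 0.14 (SE, adjusted p = 3.27e-05) in Doxo+Cyta+DAC relative to NT and was -0.60 ± 0.14 (SE, adjusted p = 0.0489) in Doxo+Cyta relative to NT, a value just past the threshold. NPM3, a relative of nucleophosmin, rose by 0.66 ± 0.16 (SE, adjusted p = 0.00332).

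**Figure D2:**
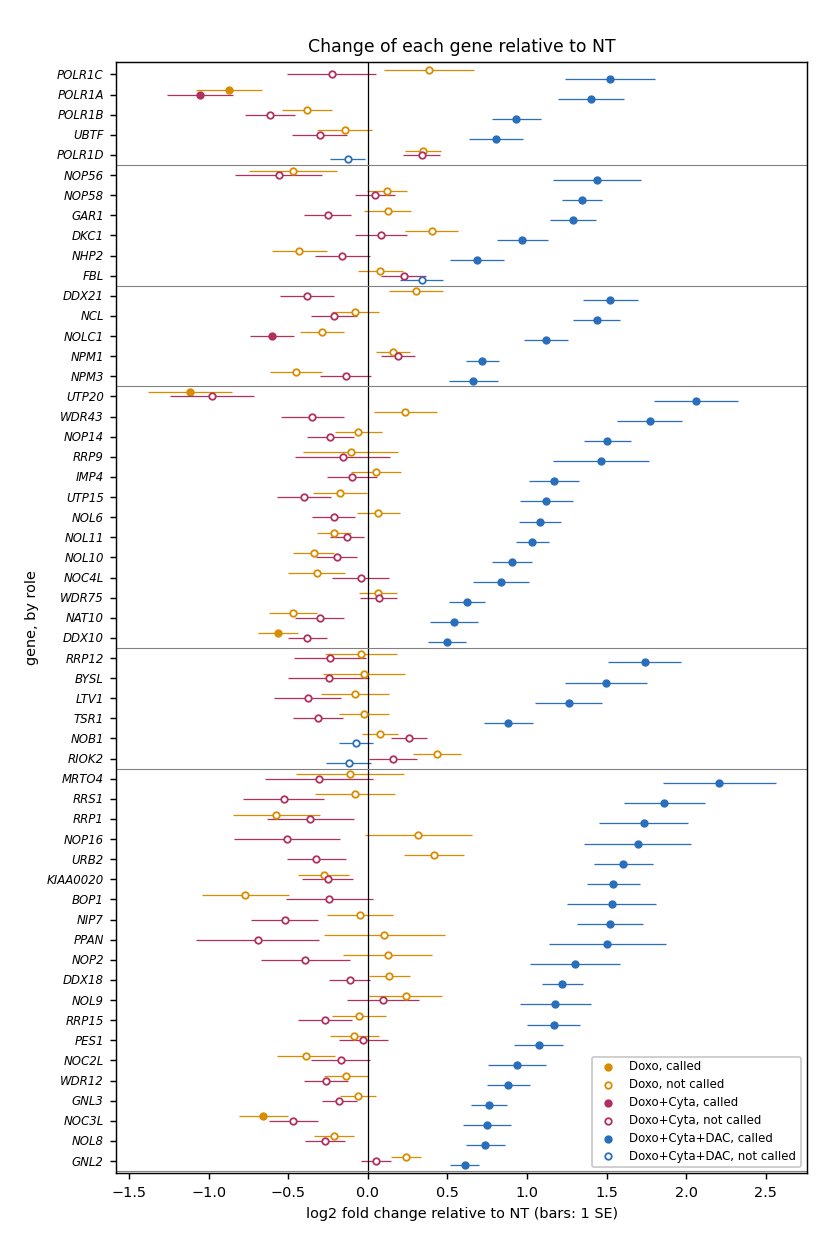
Log2 fold change relative to NT (x) of each of the 55 genes (y, by role) in Doxo, Doxo+Cyta and Doxo+Cyta+DAC, with bars of 1 SE and filled points for an adjusted p under 0.05. Filled Doxo+Cyta+DAC points run from 0.50 for DDX10 to 2.21 for MRTO4, and the points of the chemotherapy-only groups lie between -1.12 and 0.43.

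The small-subunit processome packages the start of the ribosomal RNA precursor. All 13 of its genes rose in Doxo+Cyta+DAC relative to NT (24.9% of tested genes). UTP20, a large repeat protein of this complex (chr12:101280127-101386619, plus strand), had the lowest level per length of the 55 genes, 3.87 CPM per kb, and was at 20.3 and 18.4 CPM (NT), 13.3, 6.17 and 7.51 CPM (Doxo), 10.4, 7.61 and 11.4 CPM (Doxo+Cyta) and 85.5, 92.2, 82.6 and 62.7 CPM (Doxo+Cyta+DAC). Both chemotherapy-only groups lay below NT in every library, and the lowest Doxo+Cyta+DAC library held 3.09 times the level of the higher NT library. Relative to NT the log2 fold change was 2.06 ± 0.26 (SE, adjusted p = 4.10e-05) in Doxo+Cyta+DAC. Relative to Doxo it was 3.18 ± 0.24 (SE, adjusted p = 3.77e-07) and relative to Doxo+Cyta 3.04 ± 0.24 (SE, adjusted p = 3.01e-07), the largest of the set in both comparisons.

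WDR43 (chr2:28894643-28948220, plus strand), a WD40 protein of the processome, was at 68 and 73.5 CPM (NT), 116, 69.3 and 64.4 CPM (Doxo), 55.8, 58.7 and 52.2 CPM (Doxo+Cyta) and 217, 263, 245 and 239.6 CPM (Doxo+Cyta+DAC). Doxo replicate 4 was the highest library outside Doxo+Cyta+DAC, and the log2 fold change relative to NT was 1.77 ± 0.20 (SE, adjusted p = 1.72e-05). NOP14 (chr4:2937937-2963506, minus strand) was at 64.1 and 67.7 CPM (NT), 77.9, 53.7 and 58.3 CPM (Doxo), 49.8, 62.2 and 56 CPM (Doxo+Cyta) and 187, 187, 191 and 183 CPM (Doxo+Cyta+DAC). Its Doxo+Cyta+DAC libraries had an SD of 3.46 CPM (n = 4), and it rose by 1.51 ± 0.15 (SE, adjusted p = 6.19e-06) relative to NT. The antisense gene NOP14-AS1 overlaps 10.04% of its exon bases, and counting took no account of strand. NOL11, needed for transcription and processing of the precursor (chr17:67717833-67744208, plus strand), was at 73.5 and 72 CPM (NT), 63.2, 60.9 and 64.3 CPM (Doxo), 68.5, 62.6 and 68.1 CPM (Doxo+Cyta) and 154, 159, 142 and 141 CPM (Doxo+Cyta+DAC). It rose by 1.03 ± 0.10 (SE, adjusted p = 6.61e-06). The other genes of the complex rose by between 0.50 (DDX10) and 1.46 (RRP9), and the acetyltransferase NAT10 rose by 0.54 ± 0.15 (SE, adjusted p = 0.00832).

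Late maturation of the 40S subunit split, with 4 of its 6 genes higher in Doxo+Cyta+DAC relative to NT (24.9% of tested genes). RRP12, which helps export of the subunits (chr10:97356701-97401370, minus strand), was at 29.9 and 31.3 CPM (NT), 43.2, 22.6 and 23.4 CPM (Doxo), 23.9, 29.7 and 24.2 CPM (Doxo+Cyta) and 102, 105, 112 and 90 CPM (Doxo+Cyta+DAC). It rose by 1.74 ± 0.23 (SE, adjusted p = 5.17e-05) relative to NT. LTV1, a factor that is released late in the cytoplasm (chr6:143843371-143863806, plus strand), was at 71.9 and 74.5 CPM (NT), 95.2, 57.6 and 55 CPM (Doxo), 51.8, 70.6 and 46.6 CPM (Doxo+Cyta) and 177, 180.5, 172 and 172 CPM (Doxo+Cyta+DAC). BYSL, bystin (chr6:41921227-41933046, plus strand), was at 44.1 and 41.4 CPM (NT), 62.7, 30.7 and 32.8 CPM (Doxo), 29.4, 46.4 and 32.4 CPM (Doxo+Cyta) and 117, 117, 129.9 and 119.6 CPM (Doxo+Cyta+DAC). The lowest Doxo+Cyta+DAC library held 1.81 times the level of the highest other library for LTV1 and 1.86 times for BYSL, and on the log2 scale LTV1 rose by 1.26 ± 0.21 (SE, adjusted p = 0.0003) and BYSL by 1.5 ± 0.26 (SE, adjusted p = 0.000375) relative to NT. TSR1, a GTPase-like factor, rose by 0.88 ± 0.16 (SE, adjusted p = 0.000436), although SRR overlaps 23.5% of its exon bases.

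The remaining pair, NOB1 and RIOK2, carry out the last steps of the pathway. NOB1, the endonuclease that makes the final cut of the small-subunit RNA (chr16:69741854-69754968, minus strand), was at 108 and 99.8 CPM (NT), 97.2, 116 and 115 CPM (Doxo), 122, 132 and 118 CPM (Doxo+Cyta) and 101, 99.9, 92.6 and 99.7 CPM (Doxo+Cyta+DAC). Its levels in NT and Doxo+Cyta+DAC overlapped, with a log2 fold change of -0.08 ± 0.11 (SE, adjusted p = 0.579), and every Doxo+Cyta library was above both. Relative to Doxo+Cyta, NOB1 was lower in Doxo+Cyta+DAC by -0.33 ± 0.09 (SE, adjusted p = 0.00709). RIOK2, a kinase of cytoplasmic maturation (chr5:97160867-97183301, minus strand), was at 26.1 and 26.3 CPM (NT), 28.3, 38.6 and 39.2 CPM (Doxo), 30.1, 28.1 and 29.6 CPM (Doxo+Cyta) and 22.7, 23.6, 24 and 26.2 CPM (Doxo+Cyta+DAC). It was lower in Doxo+Cyta+DAC than in Doxo by -0.55 ± 0.12 (SE, adjusted p = 0.00165), and Doxo replicates 5 and 6 were its highest libraries. Relative to NT it was -0.12 ± 0.14 (SE, adjusted p = 0.506), and relative to Doxo+Cyta -0.28 ± 0.12 (SE, adjusted p = 0.0681).

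**Figure D3:**
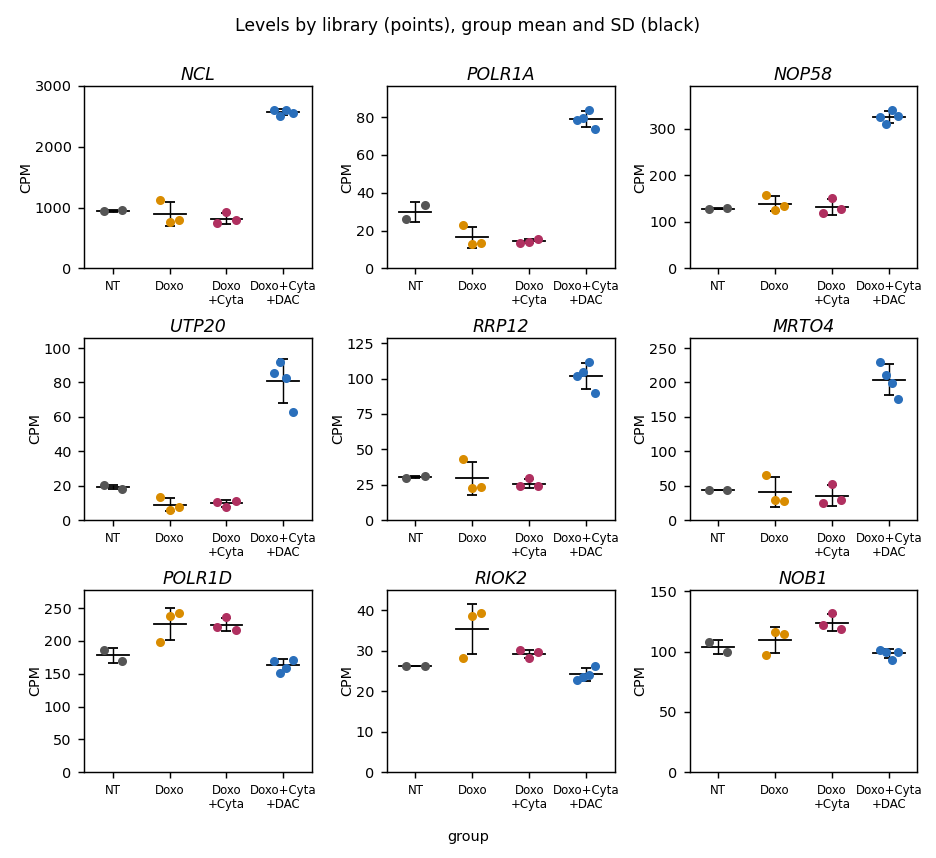
CPM (y, from 0) of 9 genes in each library (points) by group (x), with the group mean and SD in black. NCL, POLR1A, NOP58, UTP20, RRP12 and MRTO4 have every Doxo+Cyta+DAC point above all others, and POLR1D, RIOK2 and NOB1 do not.

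The assembly of the 60S subunit holds 20 of the genes, and all 20 rose in Doxo+Cyta+DAC relative to NT (24.9% of tested genes). Their median log2 fold change was 1.26. DDX18, a helicase (chr2:117814679-117832377, plus strand), was at 99.3 and 110.0 CPM (NT), 127, 109 and 108 CPM (Doxo), 94.2, 85.7 and 109.9 CPM (Doxo+Cyta) and 229, 235, 266 and 247 CPM (Doxo+Cyta+DAC). It rose by 1.22 ± 0.13 (SE, adjusted p = 8.92e-06). KIAA0020, now named PUM3, a Pumilio-family RNA-binding protein of the nucleolus (chr9:2804155-2844130, minus strand), was at 145 and 136 CPM (NT), 149, 100.1 and 99.3 CPM (Doxo), 108, 135 and 111 CPM (Doxo+Cyta) and 419, 425, 409.8 and 385 CPM (Doxo+Cyta+DAC). Doxo replicates 5 and 6 lay below all other libraries, and the log2 fold change of Doxo+Cyta+DAC relative to NT was 1.54 ± 0.16 (SE, adjusted p = 1.01e-05). URB2 (chr1:229626234-229660199, plus strand) was at 18.3 and 21.1 CPM (NT), 33.6, 21.3 and 24.1 CPM (Doxo), 15.2, 14 and 18 CPM (Doxo+Cyta) and 54.5, 58.3, 67.5 and 59.1 CPM (Doxo+Cyta+DAC). Its Doxo+Cyta libraries were the lowest of the series, and it rose by 1.6 ± 0.19 (SE, adjusted p = 1.92e-05) in Doxo+Cyta+DAC relative to NT and was lower in Doxo+Cyta than in Doxo by -0.74 ± 0.17 (SE, adjusted p = 0.0308).

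PES1, BOP1 and WDR12 form the PeBoW complex, which is needed to process the large-subunit RNA, and relative to NT PES1 rose by 1.07 ± 0.15 (SE, adjusted p = 8.52e-05) on the log2 scale, BOP1 by 1.53 ± 0.28 (SE, adjusted p = 0.000572) and WDR12 by 0.88 ± 0.14 (SE, adjusted p = 0.000158). RRS1, which brings in the 5S particle, rose by 1.86 ± 0.25 (SE, adjusted p = 6.30e-05) and RRP1 by 1.73 ± 0.28 (SE, adjusted p = 0.000236). The smallest rise was that of GNL2, a nucleolar GTPase, at 0.61 ± 0.09 (SE, adjusted p = 0.000128), and its relative GNL3, nucleostemin, rose by 0.76 ± 0.11 (SE, adjusted p = 9.85e-05). PPAN rose by 1.5 ± 0.37 (SE, adjusted p = 0.00427), but the readthrough gene PPAN-P2RY11 overlaps 87.6% of its exon bases, so its count covers a small part of the gene. In all, 11 of the 55 genes share exon bases with another gene, and fragments on shared bases were left out of the counts.

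Set against the chemotherapy-only relapses, the direction of these genes was the same. In Doxo+Cyta+DAC relative to Doxo, 51 genes were higher and 2 lower (59.5% of all tested genes were called, 29.1% higher and 30.4% lower), with a median log2 fold change of 1.22 against -0.01 over all tested genes. Relative to Doxo+Cyta, 51 were again higher and 2 lower (60.3% of tested genes were called, 29.8% higher and 30.5% lower), with a median of 1.34 against 0.00. The lower genes were POLR1D and RIOK2 relative to Doxo, and POLR1D and NOB1 relative to Doxo+Cyta. Every Doxo+Cyta+DAC library lay above every Doxo library for 52 genes (29.7% of tested genes) and below for 2 (30.2%), and relative to Doxo+Cyta these counts were 51 (29%) and 3 (28.2%). With a fold over 2 and an adjusted p under 0.01 as the limit, 42 genes rose relative to Doxo (9.71% of tested genes), 41 relative to Doxo+Cyta (10.2%) and 33 relative to NT (6.9%). The same limit called 0 of them in the comparisons among NT, Doxo and Doxo+Cyta, where it called 1.55% of tested genes in Doxo relative to NT, 0% in Doxo+Cyta relative to NT and 0.374% in Doxo+Cyta relative to Doxo. The 3 comparisons share the Doxo+Cyta+DAC libraries and are not independent of each other.

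After doxorubicin alone, few of these genes passed the test. In Doxo relative to NT, 0 genes were higher and 4 were lower in edgeR's test (10.7% of all tested genes were called, 6.06% higher and 4.63% lower), with 15 of the 55 at an unadjusted p under 0.05 (28.3% of tested genes) and 3 higher and 6 lower in the Wald test of DESeq2 (15.2% of tested genes). By both of the latter counts the set was near the share of all tested genes. The median log2 fold change was -0.06. The 4 genes were POLR1A (-0.87 ± 0.21 (SE, adjusted p = 0.0191)), UTP20 (-1.12 ± 0.27 (SE, adjusted p = 0.0188)), NOC3L, a 60S factor (-0.66 ± 0.16 (SE, adjusted p = 0.0182)), and DDX10, a helicase of the processome (-0.57 ± 0.12 (SE, adjusted p = 0.0131)). NOC3L was at 29.3 and 29.1 CPM (NT), 22.2, 16 and 17.4 CPM (Doxo), 21.9, 17.8 and 23.6 CPM (Doxo+Cyta) and 50.2, 50.2, 47.9 and 48.2 CPM (Doxo+Cyta+DAC), and DDX10 was at 53.3 and 50.4 CPM (NT), 40.3, 32.8 and 32.1 CPM (Doxo), 41.2, 39.8 and 38.7 CPM (Doxo+Cyta) and 79.3, 70.9, 71.8 and 71.3 CPM (Doxo+Cyta+DAC). For all 4, no Doxo library reached the lower NT library. Over the set, all Doxo libraries lay below both NT libraries for 12 genes (24.5% of tested genes) and above them for 6 (24.6%).

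The calls in Doxo relative to NT depended on single libraries. Doxo replicate 4 was the highest of its group for 47 of the 55 genes, and the median of the set relative to NT was 0.19 in this library, -0.30 in replicate 5 and -0.27 in replicate 6 on the log2 scale. Without Doxo replicate 4, 16 genes were lower and 2 higher than in NT (22.2% of tested genes were called), and the median log2 fold change was -0.31. Without NT replicate 1 or 2, or without Doxo replicate 5 or 6, 0 genes were called, where 0.555% to 3.53% of tested genes were. Without Doxo+Cyta replicate 20, which shares the estimate of spread, 9 were called (18.3% of tested genes). The median coefficient of variation of the 55 genes was 3.57% for NT, 20.9% for Doxo, 12.9% for Doxo+Cyta and 6.69% for Doxo+Cyta+DAC, against 6.33%, 14.1%, 17.2% and 12% over all tested genes. This median was larger for the 55 genes than over all tested genes in Doxo, and smaller in the other 3 groups. The measure also depends on the level of a gene, and the 2 sets were not matched for level.

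In Doxo+Cyta relative to NT, 0 genes were higher and 2 lower in edgeR's test (1.46% of tested genes were called, 0.911% higher and 0.551% lower), with 11 of the 55 at an unadjusted p under 0.05 (20.4% of tested genes) and 0 higher and 5 lower with DESeq2 (5.9%). The 2 genes were NOLC1 and POLR1A, the latter at -1.06 ± 0.21 (SE, adjusted p = 0.0321). The median log2 fold change was -0.25, and 45 of the 55 genes had a negative value. Every Doxo+Cyta library lay below both NT libraries for 29 genes (19.2% of tested genes) and above them for POLR1D, NPM1, NOB1 and RIOK2 (21.4%). Doxo+Cyta replicate 20 was the highest of its group for 35 genes, with a median of -0.07 relative to NT where replicates 19 and 22 had -0.33. Without NT replicate 1 or 2, Doxo+Cyta replicate 19 or 22, or Doxo+Cyta+DAC replicate 33, 0 genes were called (0% to 0.623% of tested genes). Without Doxo replicate 5 or 6 or Doxo+Cyta+DAC replicate 30 or 32, 1 was called (0.594% to 0.9%), and without Doxo replicate 4 there were 6 (5.04%).

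With both libraries that stood apart left out, a fit added after the data were seen, the chemotherapy-only relapses were lower than NT in more genes. Then 31 genes were lower and 3 higher in Doxo (37.4% of tested genes were called), and 29 were lower and 1 higher in Doxo+Cyta (14.5%). The counts against Doxo+Cyta+DAC changed little, at 52 higher than NT (60.7% of tested genes were called), and 52 higher and 3 lower than each chemotherapy-only group (67.9% for Doxo and 66.8% for Doxo+Cyta). These 3 were POLR1D, NOB1 and RIOK2 in both comparisons. The groups then held 2 libraries each in NT, Doxo and Doxo+Cyta, and both libraries had been chosen for their distance from the rest.

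In edgeR's test the 2 chemotherapy-only groups differed from each other in few genes, and the 55 were near the share of all tested genes. In Doxo+Cyta relative to Doxo, DDX21 and URB2 were lower and 0 genes higher (3.4% of tested genes were called, 1.07% higher and 2.32% lower), with 13 of the 55 at an unadjusted p under 0.05 (18.9% of tested genes) and 0 higher and 3 lower with DESeq2 (6.59%). The median log2 fold change was -0.15, and it was 0.016 without Doxo replicate 4, where 3 genes were higher and 1 lower (6.21% of tested genes were called). Without Doxo replicate 5 or 6, 1 gene was called (1.19% and 1.31% of tested genes), and without Doxo+Cyta replicate 19, 0 were called (0.921%). Over the 4 groups, the mean was highest in Doxo+Cyta+DAC for 52 of the 55 genes (39.5% of tested genes), and NT lay between the chemotherapy-only groups and Doxo+Cyta+DAC for 34 of them, or 61.8% (19.3% of tested genes).

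Other genes of the same pathway, from a list of 107 that excludes the 55, moved in the same comparison. In Doxo+Cyta+DAC relative to NT, 83 of the 107 were higher and 3 lower (24.9% and 23.7% of tested genes), with a median log2 fold change of 0.73. The lower genes were GLTSCR2, now NOP53, a 60S factor (-0.48 ± 0.13 (SE, adjusted p = 0.009)), EFTUD1, now EFL1, the GTPase that acts in release of EIF6 from the 60S subunit (-0.46 ± 0.11 (SE, adjusted p = 0.00296)), and PIH1D1, a chaperone of snoRNP assembly (-0.38 ± 0.14 (SE, adjusted p = 0.036)). GLTSCR2 was at 580.3 and 523 CPM (NT), 624, 717 and 759 CPM (Doxo), 722, 936 and 666 CPM (Doxo+Cyta) and 411, 423, 354 and 394 CPM (Doxo+Cyta+DAC). In Doxo relative to NT 4 of the 107 were higher and 10 lower (6.06% and 4.63% of tested genes). In Doxo+Cyta relative to NT 1 was higher and 0 lower in edgeR's test (0.911% and 0.551% of tested genes). There 24 were at an unadjusted p under 0.05 (20.4% of tested genes).

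The RNA of cytosolic ribosomal protein genes did not share the rise. Of 81 tested genes for cytosolic ribosomal proteins, 2 were higher and 3 lower in Doxo+Cyta+DAC relative to NT (24.9% and 23.7% of tested genes). Their median log2 fold change was -0.13. Relative to Doxo, 1 was higher and 46 lower (29.1% and 30.4% of tested genes), with a median of -0.33. Relative to Doxo+Cyta, 2 were higher and 65 lower (29.8% and 30.5% of tested genes), with a median of -0.48. In Doxo+Cyta relative to NT, 1 was higher and 0 lower (0.911% and 0.551% of tested genes), and 79 were positive. The median there was 0.36, and 58 were at an unadjusted p under 0.05 (20.4% of tested genes). Medians by library relative to NT were 0.20, 0.68 and 0.13 in Doxo+Cyta replicates 19, 20 and 22. In Doxo relative to NT, 78 were positive, with a median of 0.24. Fragments on several places were left out of these counts too. Of 76 tested genes for mitochondrial ribosomal proteins, 43 were higher and 3 lower in Doxo+Cyta+DAC relative to NT (24.9% and 23.7% of tested genes). Their median was 0.45. The difference between these lists and the 55 genes was not tested.

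**Figure D4:**
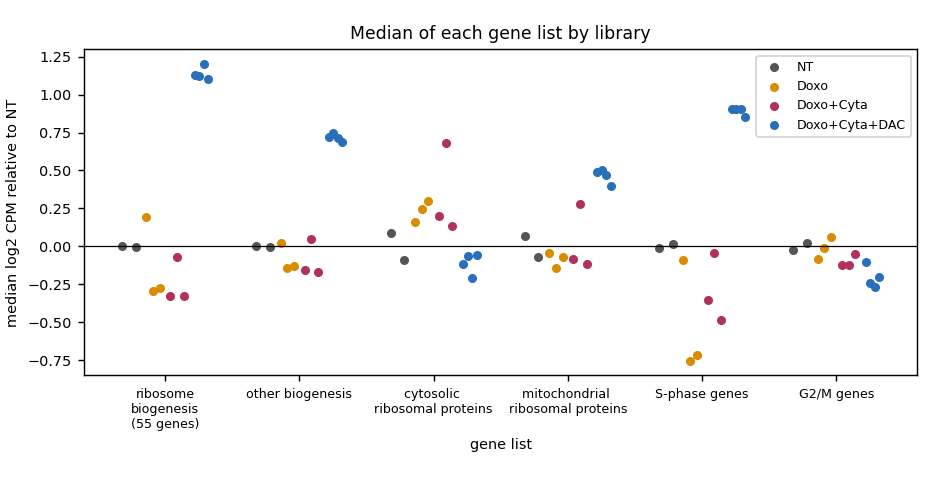
Median log2 CPM relative to NT (y) of 6 gene lists (x), with 1 point for each library. The 4 Doxo+Cyta+DAC libraries stand at 1.10 to 1.20 for the 55 ribosome biogenesis genes and at -0.21 to -0.06 for cytosolic ribosomal proteins.

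MYC and genes of DNA synthesis rose with these genes in Doxo+Cyta+DAC. MYC was at 275 and 283 CPM (NT), 273, 224 and 216 CPM (Doxo), 174, 217 and 172 CPM (Doxo+Cyta) and 504, 455, 512 and 539.9 CPM (Doxo+Cyta+DAC), and its log2 fold change in Doxo+Cyta+DAC was 0.85 ± 0.13 (SE, adjusted p = 0.00016) relative to NT, 1.08 ± 0.11 (SE, adjusted p = 3.74e-06) relative to Doxo and 1.42 ± 0.12 (SE, adjusted p = 3.58e-07) relative to Doxo+Cyta. In Doxo+Cyta relative to NT MYC was lower, at -0.57 ± 0.13 (SE, adjusted p = 0.0489), a value just past the threshold. MAX, its partner, was lower in Doxo+Cyta+DAC than in NT, at -0.32 ± 0.10 (SE, adjusted p = 0.0165). It was also lower than in Doxo, at -0.51 ± 0.09 (SE, adjusted p = 0.000229), and than in Doxo+Cyta, at -0.54 ± 0.09 (SE, adjusted p = 0.000131). All 10 S-phase genes, among them those of the MCM helicase, were higher in Doxo+Cyta+DAC than in NT (24.9% of tested genes). Their median log2 fold change was 0.93. Of the 6 genes of G2 and mitosis 0 were higher and 1 was lower in edgeR's test in Doxo+Cyta+DAC relative to NT (24.9% and 23.7% of tested genes). The lower gene was TOP2A at -0.50 ± 0.15 (SE, adjusted p = 0.0148). At an unadjusted p under 0.05 there were 2 of the 6 (54.9% of tested genes). These were TOP2A and, with a positive change, CCNB1 at 0.23 ± 0.10 (SE, adjusted p = 0.0766). The part of MYC and of DNA synthesis in the rise of the 55 genes was not tested.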

How the data were processed

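TruSeq libraries of total RNA from 12 HEL cultures were sequenced as paired ends. According to the study's methods and the submitters' processing notes, the authors aligned the reads to GRCh38 with Bowtie2 2.2.8 and counted fragments per gene with featureCounts 1.6.0 without strand. Fragments on several places or several genes were left out, and the annotation version is not given in the sources used here. The deposited values are raw counts per gene. They are whole numbers, and the deposited length column, the exon length of each gene, was used only for CPM per kb. Of 26485 genes, 4 with a missing count were left out.

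The analysis of the counts used edgeR 4.0.16 and R 4.3.3. The filter on low counts was filterByExpr, library sizes were scaled by TMM, and all 12 libraries entered 1 quasi-likelihood fit. Tests were two-sided, with Benjamini-Hochberg adjustment over all 14164 tested genes of a comparison and a threshold of 0.05. The standard error was the log2 fold change divided by the root of F. The script was tested on simulated data.

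The 55 genes and all lists were chosen with earlier results of these data known. Values in every library are given, by a rule, for the 3 genes of each role with the smallest adjusted p in Doxo+Cyta+DAC relative to NT, genes called against the majority, and those with the highest and lowest level per length. MRTO4, FBL, NOC3L, DDX10 and GLTSCR2, and the fold changes of further genes, were added after their values were seen. Alternatives were RLE and upper-quartile scaling, TMM without the 55 genes and ribosomal protein genes, no filter, at least 10 counts in every library, DESeq2 1.42.0, only the groups compared, a stricter threshold, and leaving out each library. Leaving out both Doxo replicate 4 and Doxo+Cyta replicate 20 was added after the data were seen.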

Additional observations from a re-analysis of the deposited data

Results flagged for a closer look

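One of the 55 genes had a Doxo+Cyta+DAC library far from the other 3. DDX10 was at 79.3 CPM in replicate 30, against 71.8 CPM in the nearest library and 70.9 CPM in the lowest, a gap of 0.889 of the group's whole range, above Dixon's critical value for 4 samples. All 55 genes were tested in this way in the group of 4, and chance flags about 1 in 20 groups.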

How the results depend on the processing

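Over 20 refits, the median of the 55 genes kept its direction in the comparisons with Doxo+Cyta+DAC, and each gene called in any of the 6 comparisons kept the sign of its fold change. In Doxo+Cyta+DAC relative to NT, 51 genes passed the test, 33 with an adjusted p under 0.01 and a fold over 2, and 49 to 52 with 1 library left out, with a median log2 fold change of 1.11 to 1.18. Relative to Doxo and relative to Doxo+Cyta, 53 to 54 passed with 1 library left out. In Doxo relative to NT, 4 passed, 9 with DESeq2, 0 under the stricter limit, and 0 to 18 with 1 library left out, with a median of -0.31 to 0.019. In Doxo+Cyta relative to NT, 2 passed, 1 with upper-quartile scaling or at least 10 counts in every library, 4 without the filter, 5 with DESeq2, 0 with only the groups compared or under the stricter limit, and 0 to 6 with 1 library left out. In Doxo+Cyta relative to Doxo, 2 passed, 0 with only the groups compared or under the stricter limit, and 0 to 4 with 1 library left out, with a median of -0.23 to 0.016. Without Doxo replicate 4 and Doxo+Cyta replicate 20, the 3 counts were 34, 30 and 10, and the median in Doxo relative to NT was -0.31. The cause of these shifts was not tested. Where 1 NT library was left, it was assumed to vary like the other groups. No paired analysis was possible because the groups share no replicate numbers. NT has 2 libraries, which limits every comparison with it.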
